A study of Mus musculus with 6 samples.

Results

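The 8 genes described here, Prox1, Nr2f2, Maf, Gata4, Mmrn1, Lyve1, Pdpn and Reln, mark lymphatic or sinusoidal endothelium. They were chosen by name, and each was found once among the 23337 genes of the deposited expression table. RNA-seq had been run on CD31+ CD45- endothelial cells sorted from collagenase-digested mouse spleens, with 3 libraries of Stab1-/- mice (KO 2, KO 3 and KO 4) and 3 of wild-type mice (WT 1, WT 3 and WT 4). Stab1 encodes stabilin-1, a receptor by which sinusoidal and lymphatic cells take up waste molecules. Mice of both genotypes were labelled C57BL/6 and their cells blood endothelial cells, and the sources used here give no age, no sex and no word on whether libraries came from separate animals. The p-values therefore measure only the spread between these libraries, which may be technical. Levels are RPKM (reads scaled by gene model length and by library size), which can be compared between genes.

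Lymphatic endothelium is set apart from blood endothelium by the homeobox factor Prox1, which keeps lymphatic cells in their fate. Its partner Nr2f2, also called COUP-TFII, is a nuclear receptor that maintains venous identity. The lining cells of sinusoids, the wide and leaky vessels of liver, spleen and bone marrow, share several scavenger receptors with lymphatic vessels, and Gata4 directs their specialisation in mouse liver. Lyve1 and Pdpn proteins sit on the surface of lymphatic cells, and the products of Reln and Mmrn1 are secreted by them.

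The identity genes fell into a well-expressed set of 3 transcription factors and a set of 5 genes at low levels. Prox1, Maf and Nr2f2 were at 12.4 to 26.3 RPKM in the Stab1 knockout libraries and at 14.4 to 33.8 RPKM in the wild-type libraries. Mmrn1, Lyve1, Pdpn, Gata4 and Reln reached at most 0.958 RPKM in knockout and 2.43 RPKM in wild type. Within a library, the lowest of the 3 factors stood above the highest of the other 5 genes by a ratio of 20.8 in KO 2, 13.4 in KO 3 and 17.9 in KO 4. That ratio was 7.93 in WT 1, 5.91 in WT 3 and 11.7 in WT 4. The labelled blood endothelial cells held Prox1 RNA, while the surface and secreted members Lyve1, Pdpn, Mmrn1 and Reln were low in the same libraries.

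The libraries were checked against their labels first. Stab1 RNA stood at 2.32, 2.62 and 2.49 RPKM in the knockout libraries, against 21.6, 43.6 and 31.4 RPKM in the wild-type libraries (log2 fold change -3.40 ± 0.22 SE, adjusted p = 7.15e-05 in limma). Pecam1, the gene of CD31, was at 329 to 360 RPKM in knockout and 273 to 326 RPKM in wild type, and Ptprc, the gene of CD45, did not exceed 0.110 RPKM. Depth was 40538556 to 51498038 reads in knockout and 40274424 to 50177715 reads in wild type.

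The promoters of Prox1, Nr2f2 and Mmrn1 are shown because the first 2 of these genes head the 2 best-known identity programmes and the third was the one member without overlap between the genotypes. They are RefSeq sequences on GRCm38.p6, from 250 bases before to 50 bases after the annotated start, and 5 of the 8 members had one. Lyve1, Maf and Gata4 did not. Capitals mark matches, on either strand, to AGATAA (bound by GATA factors), AGGAAG (ETS factors), AACAAT (SOX factors) or TGCTGA (MAF factors). None of these motifs overlapped another in the windows shown.
Prox1, chr1:190170778-190171077, minus strand: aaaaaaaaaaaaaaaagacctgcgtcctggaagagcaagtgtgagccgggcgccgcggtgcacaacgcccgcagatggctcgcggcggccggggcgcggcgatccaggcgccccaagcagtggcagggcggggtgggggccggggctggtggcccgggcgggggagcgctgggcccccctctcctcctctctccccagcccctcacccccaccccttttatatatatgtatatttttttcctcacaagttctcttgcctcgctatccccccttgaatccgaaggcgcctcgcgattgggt
Nr2f2, chr7:70366697-70366996, minus strand: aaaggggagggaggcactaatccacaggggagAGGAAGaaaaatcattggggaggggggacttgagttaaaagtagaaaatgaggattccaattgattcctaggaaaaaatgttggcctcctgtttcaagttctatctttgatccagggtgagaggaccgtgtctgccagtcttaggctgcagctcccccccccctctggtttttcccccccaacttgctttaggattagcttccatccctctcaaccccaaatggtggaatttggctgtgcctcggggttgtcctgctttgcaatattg
Mmrn1, chr6:60944067-60944366, plus strand: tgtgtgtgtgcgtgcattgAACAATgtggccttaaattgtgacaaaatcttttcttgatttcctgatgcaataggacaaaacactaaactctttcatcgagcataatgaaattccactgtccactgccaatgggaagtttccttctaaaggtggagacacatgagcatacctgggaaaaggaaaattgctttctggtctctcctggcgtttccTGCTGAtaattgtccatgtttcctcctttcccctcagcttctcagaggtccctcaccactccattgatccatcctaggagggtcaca
The Prox1 window, with a GC content of 64.3%, held none of the 4 motifs, as was also the case at the second annotated start of Prox1 and in the Pdpn and Reln windows. The Nr2f2 window (GC 49.7%) held 1 ETS motif, which 35.4% of 32851 mouse promoters of this length also hold. The Mmrn1 window (GC 44.3%) held 1 SOX motif and 1 MAF motif, found in 10.7% and 19.5% of those promoters, and no GATA motif, found in 11.2%. These matches describe letters in a window and are not evidence of binding.

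Prox1 (gene ID 19130, chromosome 1, 190118035 to 190170827 in GRCm38) had the highest mean level of the members in both genotypes. It was at 23.1 (KO 2), 21.1 (KO 3) and 26.3 RPKM (KO 4) in knockout, and at 16.9 (WT 1), 33.8 (WT 3) and 27.1 RPKM (WT 4) in wild type. The lowest and the highest library were both wild type, and all 3 knockout libraries lay between them. In WT 1, Prox1 was the lowest of the 3 well-expressed factors. Means were 23.5 ± 2.62 RPKM in knockout and 25.9 ± 8.54 RPKM in wild type (SD, n = 3 each), with a log2 fold change of -0.09 ± 0.22 SE (limma, adjusted p = 0.865). Its sign turned without WT 3 (0.13) and with GC and length trends removed (0.10), so no direction can be given for Prox1. Bulk RNA gives one value per sample, so fewer cells of a type and less RNA per cell cannot be told apart for any of these genes.

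Maf (17132, chromosome 8, 115703253 to 115706894), a leucine zipper factor found in lymphatic and sinusoidal endothelium, had 18.2 RPKM in KO 2, 16.7 RPKM in KO 3 and 20.5 RPKM in KO 4. Wild-type levels were 25.7 RPKM in WT 1, 18.6 RPKM in WT 3 and 25.4 RPKM in WT 4. KO 4 lay above WT 3, so the groups overlapped by that pair alone. The means were 18.5 ± 1.92 RPKM in knockout and 23.2 ± 4.02 RPKM in wild type, and the difference was -0.31 ± 0.15 SE on the log2 scale (limma, adjusted p = 0.348). With library quality weights, Maf passed the threshold (-0.44, adjusted p = 0.00862), and over all alternatives its adjusted p reached 0.786.

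Nr2f2 (11819, chromosome 7, 70351946 to 70366746) was measured at 14.3 (KO 2), 12.4 (KO 3) and 17.1 RPKM (KO 4) in knockout, against 19.0 (WT 1), 14.4 (WT 3) and 15.7 RPKM (WT 4) in wild type. The groups overlapped, with KO 4 above both WT 3 and WT 4. Its log2 fold change of -0.16 ± 0.16 SE did not pass the test (limma, adjusted p = 0.633). Gata4 (14463, chromosome 14, 63198914 to 63271712), by contrast with these factors, had only 18, 49 and 32 reads in KO 2, KO 3 and KO 4 and 43, 29 and 4 reads in WT 1, WT 3 and WT 4. That corresponds to 0.207 ± 0.0910 RPKM in knockout and 0.166 ± 0.139 RPKM in wild type, with overlapping groups.

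**Figure D1:**
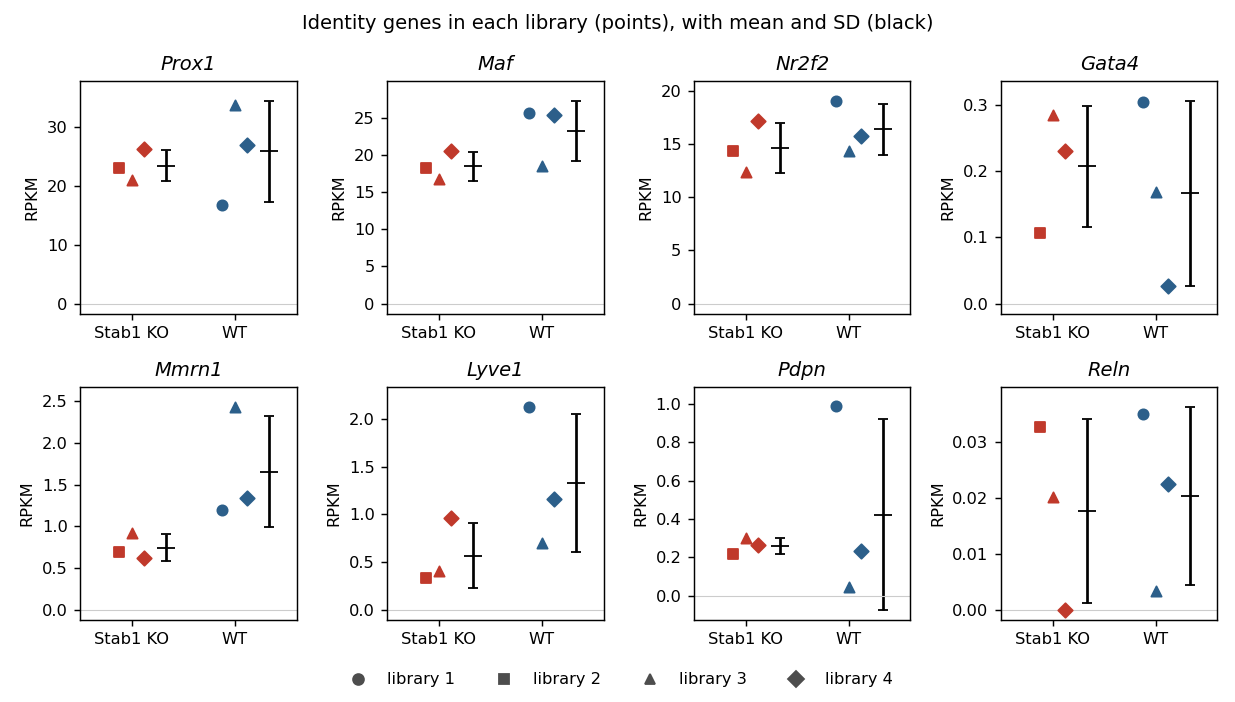
RPKM of the 8 identity genes in each library, with knockout libraries (red) left of wild-type libraries (blue), each panel on its own linear axis, and black bars for the mean ± SD of 3 libraries. Only the Mmrn1 groups do not overlap (0.623 to 0.925 RPKM in knockout, 1.20 to 2.43 RPKM in wild type), and WT 1 is the highest library for Lyve1 and Pdpn.

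Mmrn1 (70945, chromosome 6, 60944317 to 60989378) encodes multimerin-1, a secreted protein of endothelial cells and platelets. It had 0.690 (KO 2), 0.925 (KO 3) and 0.623 RPKM (KO 4) in knockout, against 1.20 (WT 1), 2.43 (WT 3) and 1.35 RPKM (WT 4) in wild type. All knockout libraries were below all wild-type libraries, and WT 3 stood highest. The knockout mean of 0.746 ± 0.159 RPKM was 0.450 times the wild-type mean of 1.66 ± 0.670 RPKM. Mmrn1 was not called, at a log2 fold change of -0.76 ± 0.24 SE (limma, unadjusted p = 0.0116, adjusted p = 0.181). Mmrn1 entered the test only through its 3 wild-type libraries, each above the minimum of 1 RPKM, so among tested genes a difference was built into its selection.

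Lyve1 (114332, chromosome 7, 110850607 to 110862953), the hyaluronan receptor that names the best-known lymphatic antigen, gave 0.332 RPKM in KO 2, 0.407 RPKM in KO 3 and 0.958 RPKM in KO 4. In wild type it gave 2.12 RPKM in WT 1, 0.698 RPKM in WT 3 and 1.17 RPKM in WT 4. KO 4 lay above WT 3, and WT 1 was the highest of all. Means were 0.566 ± 0.342 RPKM in knockout and 1.33 ± 0.727 RPKM in wild type. Lyve1 did not meet the minimum for testing, and with a minimum of 0.1 RPKM its log2 fold change was -0.75 ± 0.31 SE (limma, unadjusted p = 0.0366, adjusted p = 0.295). The values rest on 43 to 102 reads per knockout library and 92 to 231 reads per wild-type library.

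Pdpn (14726, chromosome 4, 143267409 to 143299564) encodes podoplanin, the ligand of the platelet receptor CLEC-2. Its levels were 0.216, 0.3002 and 0.263 RPKM in KO 2, KO 3 and KO 4, and 0.990, 0.0447 and 0.235 RPKM in WT 1, WT 3 and WT 4. Knockout libraries were close to each other, whereas wild type held both the highest and the lowest library, with 73 reads in WT 1 and 4 reads in WT 3. Reln (19699, chromosome 5, 21884454 to 22344705), the gene of the secreted glycoprotein reelin, had 19, 12 and 0 reads in KO 2, KO 3 and KO 4 and 17, 2 and 12 reads in WT 1, WT 3 and WT 4. At the depth of KO 4, a count of 0 allows up to 0.00628 RPKM of Reln (3 reads; counting error only). The highest Reln level in any library was 0.0348 RPKM, in WT 1.

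The order of mean levels was the same in both genotypes. From high to low it ran Prox1, Maf, Nr2f2, Mmrn1, Lyve1, Pdpn, Gata4 and Reln. In knockout, neighbours overlapped between Maf and Nr2f2, between Mmrn1 and Lyve1 and between Pdpn and Gata4. In wild type, all neighbours overlapped except Nr2f2 and Mmrn1. By their mean over the 6 libraries, Prox1 stood above 68.1% of the 11035 tested genes, Maf above 64.1%, Nr2f2 above 56.4% and Mmrn1 above 3.53%.

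Loss of Stab1 was then set against wild type over all genes. Of the 8 members, 4 met the minimum of 1 RPKM in at least 3 libraries, Prox1, Maf, Nr2f2 and Mmrn1. None of these 4 was called in limma or in voom on recovered reads, against 1.94% of all tested genes (214 of 11035) called in limma (0.671% with knockout higher, 1.27% with knockout lower). Of these 4, only Mmrn1 had an unadjusted p under 0.05 in limma, which 1737 of the 11035 tested genes had. Counts at an unadjusted p under 0.05 below are to be read beside that share. The 4 fold changes were negative, that of Prox1 with the exceptions given above, and their median was -0.24, against 0.03 for all tested genes. Mmrn1 is 1 of the 4 only through its wild-type libraries, which favoured a negative fold change and groups without overlap. Over all genes the calls split into 74 higher and 140 lower, and with GC and length trends removed into 94 higher and 113 lower. Knockout and wild-type values failed to overlap for 1 of the 4, with knockout lower, against 20.3% of all tested genes (10.7% with knockout higher and 9.57% with knockout lower). Over all 8 members it was likewise 1, against 17.1% of the 17683 genes above 0 in any library (7.78% with knockout higher and 9.3% with knockout lower). Exact two-sided permutation tests of each member over the 20 assignments of libraries gave 0.1 for Mmrn1, the smallest p that 3 against 3 libraries allow, 0.2 for Lyve1 and Maf, and 0.4 or more for the other 5.

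In the authors' deposited table, the log2 fold change of Mmrn1 was -1.11, with an adjusted p of 0.159. Lyve1, in the authors' deposited table, was at -1.25, with an unadjusted p of 0.0407 and an adjusted p of 0.3003. Gata4 (0.76) and Pdpn (0.27) had positive values in the authors' deposited table, with adjusted p of 0.680 and 0.909. For Pdpn the deposited sign was opposite to that of the log2(RPKM + 0.5) difference, -0.15, and the exact permutation p of that difference was 0.9.

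The 4 transcription factors were set beside the relatives of each factor. Prox1 made up 94.2% of the summed RPKM of Prox1 and Prox2 in both genotypes. Maf was accompanied by the small Maf factors Mafg, with 33.9 ± 0.621 RPKM in knockout and 31.4 ± 1.95 RPKM in wild type, and Mafk, with 28.1 ± 4.03 RPKM in knockout and 24.7 ± 3.21 RPKM in wild type. These small factors lack the activation domain of Maf. Nr2f2 held 15.6% of its family's RPKM in knockout and 18.4% in wild type, and the rest was nearly all Nr2f6, with 77.9 ± 8.17 RPKM in knockout and 70.6 ± 1.70 RPKM in wild type.

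Gata4 contributed 0.196% of the RPKM of the GATA factors in knockout and 0.162% in wild type. The GATA RNA of these cells was that of Gata2, a factor of blood and endothelial cells, with 60.3 ± 6.32 RPKM in knockout and 55.4 ± 5.51 RPKM in wild type, and of Gata6, with 41.5 ± 3.37 RPKM in knockout and 43.4 ± 3.36 RPKM in wild type. Of the 14 relatives tested, 0 were called in limma and 0 in voom, and 0 had an unadjusted p under 0.05 in limma. With library quality weights 5 of these relatives were called, against 3653 of all 11035 tested genes. Gata1, the erythroid and megakaryocyte factor, had the most negative fold change of the 14 relatives, -0.76 (adjusted p = 0.343 in limma). Nr2f1, the closest relative of Nr2f2, was at 1.76 to 2.61 RPKM in knockout and 1.40 to 2.02 RPKM in wild type (adjusted p = 0.464 in limma).

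**Figure D2:**
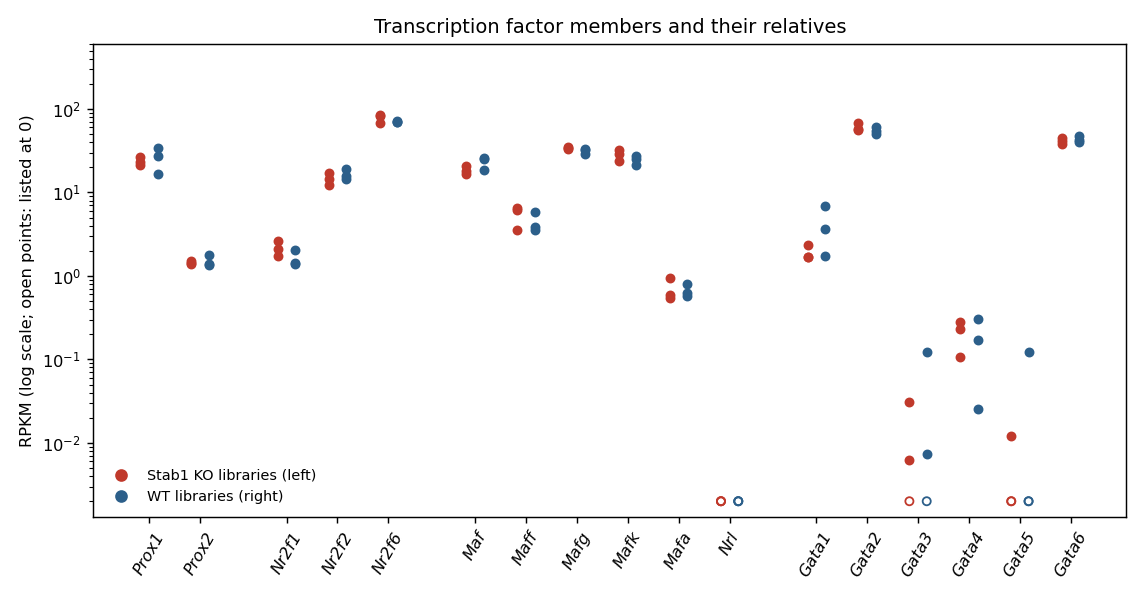
RPKM, on a log axis, of Prox1, Nr2f2, Maf, Gata4 and their relatives, with 3 knockout libraries (red, left) and 3 wild-type libraries (blue, right) per gene and open points for values listed at 0. Mafg lies above Maf, Nr2f6 above Nr2f2, and Gata2 and Gata6 above Gata4 in every library.

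Other genes of the lymphatic programme did not pass the test. Of 26 listed genes, 21 were tested and 0 were called in limma or in voom. The list gave 1 call without WT 4, against 93 over all genes, and 7 with library quality weights, against 3653. An unadjusted p under 0.05 was seen for 4 of the 21 in limma, against 1737 of all 11035 tested genes. The median log2 fold change of the list was 0.12, against 0.03 for all genes. Sox18, which acts upstream of Prox1 in mouse embryos, was abundant, at 382, 405 and 354 RPKM in the knockout libraries and 337, 354 and 312 RPKM in the wild-type libraries. Flt4, the receptor for the lymphatic growth factor Vegfc, was at 55.9 to 72.9 RPKM in knockout and 28.7 to 76.8 RPKM in wild type. Flt4 and Sox18 stood at higher levels than Prox1 in every library.

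Nts, the neurotensin gene, had the largest positive fold change of the lymphatic list, with 26.2, 14.1 and 17.9 RPKM in KO 2, KO 3 and KO 4 and 6.71, 6.77 and 15.9 RPKM in WT 1, WT 3 and WT 4 (log2 fold change 1.02 ± 0.32 SE, adjusted p = 0.173 in limma). Its groups overlapped through KO 3 and WT 4. Vegfc itself was at 19.4 to 24.8 RPKM in knockout and 25.6 to 33.6 RPKM in wild type, with an adjusted p of 0.210 in limma. Ccl21a, the lymphatic chemokine gene, was listed at 0 in all libraries.

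Genes of sinusoidal endothelium contained calls, and the 6 called genes were lower in knockout. Of 16 tested, 6 fell and 10 were not called, against 1.27% of all tested genes called lower. The list was chosen with earlier results of these data known, so this count is no test of sinusoidal genes. Among the 6 were Fcgr2b, an inhibitory Fc receptor (log2 fold change -2.47, adjusted p = 0.00455), and Clec4g, a lectin of sinusoidal cells (-1.25, adjusted p = 0.00106), both in limma. F8, the gene of coagulation factor VIII (-1.03, adjusted p = 0.0122), and Kitl, the gene of stem cell factor (-0.96, adjusted p = 0.0135), fell as well in limma. The median of the sinusoidal list was nevertheless -0.03, and Stab2, the paralogue of Stab1, was at 174 ± 12.98 RPKM in knockout and 167 ± 48.7 RPKM in wild type (adjusted p = 0.806 in limma). Gpr182, a chemokine-scavenging receptor gene of sinusoids, lay higher in knockout, with 759 to 775 RPKM in knockout and 548 to 624 RPKM in wild type without overlap, and was just short of a call (log2 fold change 0.41, adjusted p = 0.0530 in limma). Wnt2 also had a positive fold change, with 54.3 to 68.7 RPKM in knockout and 38.3 to 62.9 RPKM in wild type, and was not called (adjusted p = 0.3003 in limma). The list gave 2 calls without KO 3, 3 calls without WT 4 and 1 call with no minimum level. Stab2 carried 94.4% of the summed RPKM of the hyaluronan receptors compared in knockout and 93.8% in wild type, against 0.306% and 0.873% for Lyve1.

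Venous and arterial genes were read beside Nr2f2, which in mouse embryos represses arterial genes. Among 9 tested venous genes only Vwf, the von Willebrand factor gene, was called, with 0.0981, 0.181 and 0.530 RPKM in knockout and 1.74, 2.86 and 1.39 RPKM in wild type (log2 fold change -1.69 ± 0.28 SE, adjusted p = 0.0191 in limma). Like Mmrn1, Vwf entered the test only through its 3 wild-type libraries, so among tested genes a difference was built into its selection. The Vwf call was lost without KO 2, without KO 3 and with no minimum level, and Vwf was not tested at a minimum of 5 RPKM. Vwf is also set beside the megakaryocyte and platelet markers below. Of 15 arterial genes, 0 were called in limma or in voom, and their median was -0.10. The arterial list gave 1 call with the replicate block, against 355 over all genes, and 4 with library quality weights, against 3653. In limma 3 of the 15 had an unadjusted p under 0.05, against 1737 of all 11035 tested genes. Nrp1, a semaphorin and VEGF co-receptor of arteries, had the smallest p among them, with 26.7 to 44.2 RPKM in knockout and 45.0 to 60.02 RPKM in wild type (adjusted p = 0.145 in limma). Bmx, an arterial kinase gene, came next, with 0.661 to 1.16 RPKM in knockout and 1.42 to 1.71 RPKM in wild type (adjusted p = 0.176 in limma).

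The partners of the low secreted and surface members gave no calls in limma or in voom, for 6 tested genes of the reelin pathway, 8 of hyaluronan, 12 around podoplanin and 5 of the EMILIN and multimerin family. An unadjusted p under 0.05 was seen for 2 genes around reelin, 0 of hyaluronan, 2 around podoplanin and 2 of the EMILIN and multimerin family. Such a p was seen in limma for 1737 of all 11035 tested genes. The medians of these 4 lists lay between -0.19 and 0.03. With 1 library left out these lists gave 0 or 1 call each, against 56 to 418 over all genes. Library quality weights gave 2 to 4 each, against 3653 over all genes. The replicate block gave 1 call for reelin and 1 for the EMILIN and multimerin family, against 355 over all genes. That family also had 1 call with GC and length trends removed. The kinases that pass on the reelin signal had the smallest p of that pathway, with Yes1 at 16.4 to 26.4 RPKM in knockout and 27.5 to 33.9 RPKM in wild type (adjusted p = 0.123 in limma). Fyn was at 121 to 130.4 RPKM in knockout and 92.7 to 108.1 RPKM in wild type (adjusted p = 0.151 in limma). The reelin receptor genes were low, with Vldlr at 0.115 to 0.3001 RPKM and Lrp8 at up to 0.102 RPKM. Of the hyaluronan genes, the receptor gene Layn had 7.34 to 7.47 RPKM in knockout and 5.27 to 6.74 RPKM in wild type (adjusted p = 0.370 in limma). Hyal2, a hyaluronidase gene, had 239.7 to 302 RPKM in knockout and 226 to 264 RPKM in wild type (adjusted p = 0.450 in limma). Mmrn2, the endothelial relative of Mmrn1, gave 296, 295 and 263 RPKM in the knockout libraries and 186, 285 and 188 RPKM in the wild-type libraries (log2 fold change 0.40 ± 0.16 SE, adjusted p = 0.257 in limma). Mmrn1 held 0.248% of the summed RPKM of its family in knockout and 0.650% in wild type.

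Emilin1, a matrix glycoprotein that anchors lymphatic vessels, had 10.3 to 19.6 RPKM in knockout and 19.7 to 33.01 RPKM in wild type, without overlap (log2 fold change -0.87 ± 0.24 SE, adjusted p = 0.118 in limma). Clec1b, which encodes the podoplanin receptor CLEC-2, had 2.65, 3.14 and 3.89 RPKM in knockout and 7.19, 9.52 and 5.07 RPKM in wild type. The Clec1b groups did not overlap, and its adjusted p was 0.0596 in limma (log2 fold change -1.03 ± 0.23 SE). Ezr, the gene of ezrin, which podoplanin binds inside the cell, had 4.99 to 5.43 RPKM in knockout and 5.92 to 7.91 RPKM in wild type (adjusted p = 0.316 in limma).

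**Figure D3:**
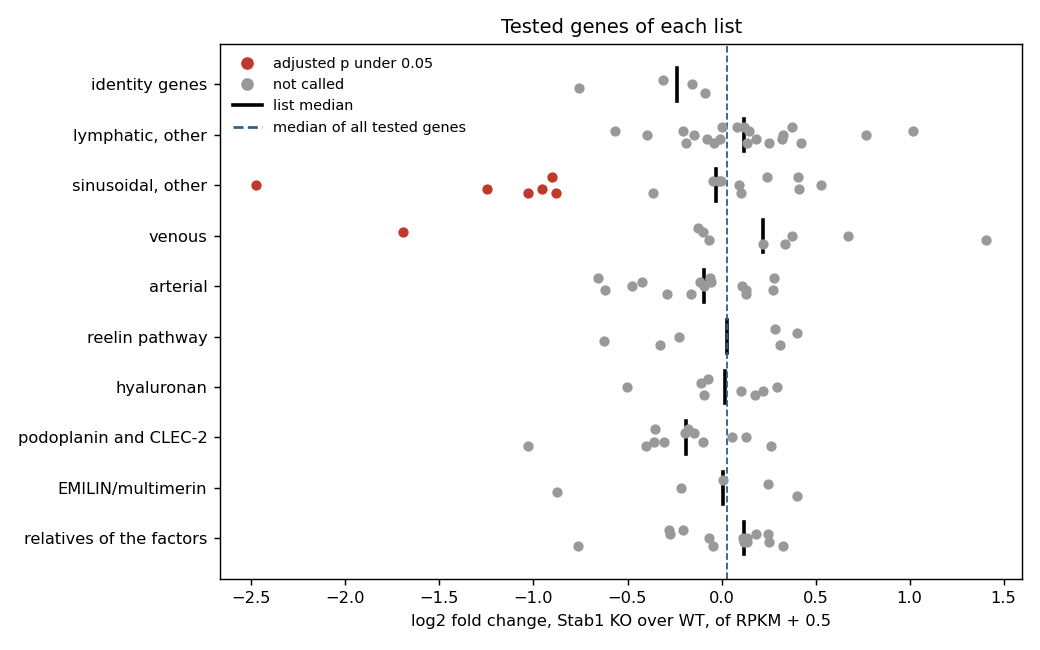
Log2 fold change, Stab1 knockout over wild type, of log2(RPKM + 0.5) for the tested genes of each list, with red points for an adjusted p under 0.05 in limma, black bars for list medians and a dashed line for the median of all tested genes, 0.03. The 7 calls are 6 sinusoidal genes and the venous gene Vwf, and none is an identity gene. The lists were chosen with earlier results of these data known.

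Mmrn1 is also a platelet and megakaryocyte gene, so that lineage's markers were read beside it. The summed RPKM of 13 megakaryocyte and platelet genes, all tested and Clec1b among them, was 76.7, 82.2 and 99.6 in KO 2, KO 3 and KO 4, and 155, 317 and 111 in WT 1, WT 3 and WT 4. The sums did not overlap, and WT 3 was the highest library both for this sum and for Mmrn1. Among knockout libraries, KO 4 was the highest for this sum and the lowest for Mmrn1. Pf4, the gene of platelet factor 4, had 15.4 to 19.2 RPKM in knockout and 36.3 to 88.4 RPKM in wild type and fell (adjusted p = 0.0160 in limma). It was the 1 call of the list, whose median log2 fold change was -0.84. Itga2b, the gene of the platelet integrin CD41, was at 5.27 to 7.88 RPKM in knockout and 6.00 to 25.7 RPKM in wild type. Vwf, the called gene of the venous list, ranked the 6 libraries in the same order as the megakaryocyte and platelet sum, from KO 2 to WT 3. The part of megakaryocytes and platelets in the Mmrn1 and Vwf values was not tested.

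Pdpn and Lyve1 are expressed outside endothelium too, Pdpn in reticular stromal and mesothelial cells and Lyve1 in some macrophages. Summed RPKM of the reticular markers was 209, 159 and 156 in KO 2, KO 3 and KO 4 and 411, 217 and 196 in WT 1, WT 3 and WT 4. The mesothelial sum was 7.55, 5.66 and 3.09 in KO 2, KO 3 and KO 4 and 19.9, 2.07 and 9.10 in WT 1, WT 3 and WT 4. WT 1 was the highest library for both sums and for Pdpn and Lyve1, and WT 3 was the lowest for Pdpn and for the mesothelial sum. The knockout libraries differed from this. Among them, KO 4 was the highest for Lyve1 and the lowest for both sums, and KO 2 was the lowest for Pdpn and the highest for both sums. Of 13 tested reticular genes 1 was called, Cxcl13, a chemokine of lymphoid stroma (log2 fold change -1.91, adjusted p = 0.00159 in limma), and of 4 tested mesothelial genes 0 in limma, with 1 at an unadjusted p under 0.05. Msln, the defining mesothelial gene, was at 0.486 to 1.73 RPKM in knockout and had 3.37 RPKM in WT 1, 0 in WT 3 and 1.95 RPKM in WT 4. Gpm6a, the mesothelial gene of smallest p, had 0.614 to 0.889 RPKM in knockout and 1.002 to 3.89 RPKM in wild type (adjusted p = 0.225 in limma), and it too was tested only through its wild-type libraries. The part of stromal and mesothelial cells in the Pdpn and Lyve1 values was not tested.

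Of 13 macrophage and monocyte markers, 6 were tested. The receptor gene Csf1r was at up to 0.118 RPKM and Adgre1, the gene of F4/80, at up to 0.155 RPKM. Other markers of the list were higher, with Lyz2 at 5.75 to 8.50 RPKM in knockout and 7.25 to 18.8 RPKM in wild type, and Cd14 at 10.7 to 15.5 RPKM in knockout and 6.16 to 10.5 RPKM in wild type. Ctss, Tyrobp and Spic lay between 1.28 and 4.90 RPKM in knockout and between 1.28 and 8.78 RPKM in wild type. No lymphocyte marker reached 1 RPKM in 3 libraries, and the highest value of that list was 1.47 RPKM, of Cd79a in KO 3. The macrophage sum was 84.6 to 145 RPKM in knockout and 239 to 275 RPKM in wild type, most of it from Fcer1g. Without Fcer1g it was 29.1, 34.3 and 30.7 RPKM in knockout and 42.9, 41.2 and 24.0 RPKM in wild type, with overlap. Fcer1g, an Fc receptor chain gene, was the 1 called gene among 6 tested of this list (log2 fold change -1.57, adjusted p = 0.00773 in limma). An unadjusted p under 0.05 in limma was seen for 4 of the 6, against 1737 of all 11035 tested genes. Of the 6 fold changes 5 were negative, and their median was -0.42. The part of macrophages in the Lyve1 values was not tested. Of 13 tested genes shared by all endothelium 0 were called in limma and 3 had an unadjusted p under 0.05, with a median of 0.22 and a summed level of 4934 to 5563 RPKM in knockout and 4415 to 4950 RPKM in wild type. Cldn5, a tight junction gene, had the smallest p of them (log2 fold change 0.29, adjusted p = 0.169 in limma). Of 9 tested mural genes 1 was called, Rgs5, a pericyte gene (log2 fold change -1.34, adjusted p = 0.0194 in limma). Rgs5, Fcer1g and the sinusoidal gene Fcgr2b lie within 5 Mb of each other on chromosome 1. Whether their calls are separate from each other was not tested. Of 17 tested genes induced by tissue dissociation 0 were called in limma and 5 had an unadjusted p under 0.05, with a median of 0.17 and a summed level of 7196 to 8458 RPKM in knockout and 6667 to 7431 RPKM in wild type. The immediate early genes Egr1 (0.44, adjusted p = 0.191) and Klf4 (-0.34, adjusted p = 0.206) had the smallest p of them in limma. The part of these in the levels of the identity genes was not tested.

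**Figure D4:**
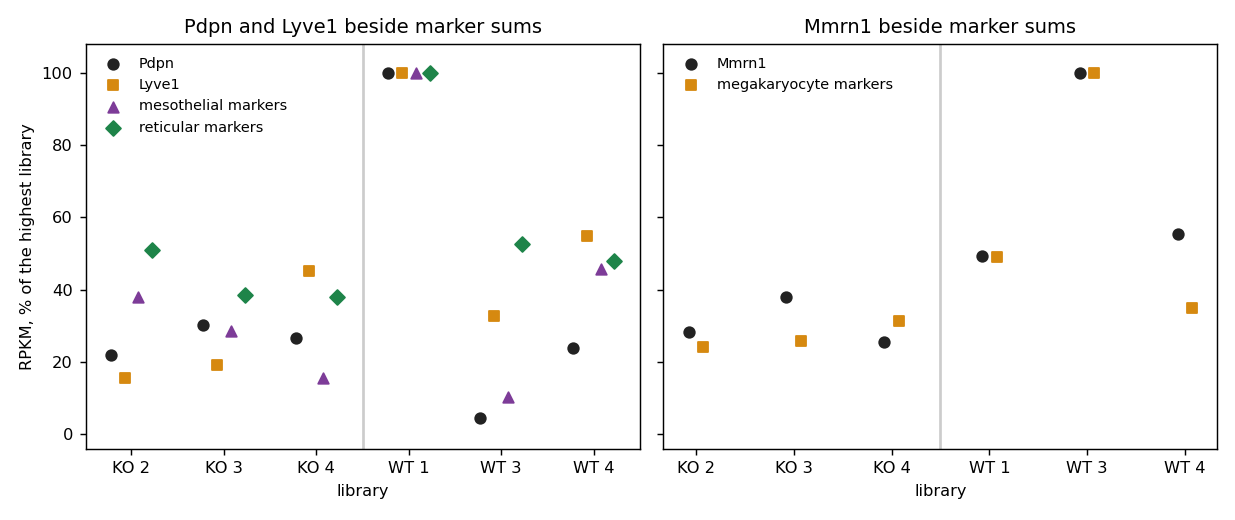
RPKM of Pdpn and Lyve1 (left panel) and Mmrn1 (right panel) in each library beside the summed RPKM of marker lists of other cell types, each as a percentage of its highest library. WT 1 is highest for Pdpn, Lyve1 and the reticular and mesothelial sums, and WT 3 is highest for Mmrn1 and the megakaryocyte sum. Among knockout libraries, KO 4 is highest for Lyve1 and lowest for the reticular and mesothelial sums. KO 4 is also the lowest of them for Mmrn1 and the highest for the megakaryocyte sum.

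For each tested member, the genes most alike in pattern were those with the highest Pearson r of log2(RPKM + 0.5) over the 6 libraries, which share depth and genotype with it. For Prox1 they were Atf7ip (r = 0.993), Atrn (0.990) and Smarcc1 (0.989), and 44 genes reached 0.95. For Mmrn1 they were Coro1a (0.982), an actin regulator of blood cells, Kcnip2 (0.981) and Gtf2ird1 (0.979), and 12 genes reached 0.95. Ecm2, Txndc17 and Itfg1 were most like Nr2f2 (0.993 each), and Rwdd1 (0.995), Ufsp2 (0.994) and Ikbip (0.993) most like Maf. With 6 libraries such values describe these libraries and carry no test.

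Nr2f2 and Lyve1 share chromosome 7, and the other members lie on separate chromosomes. No called gene was found within 5 Mb of Prox1, Lyve1, Pdpn, Mmrn1, Nr2f2 or Maf. Within 5 Mb of Reln 4 of 42 tested genes were called, and within 5 Mb of Gata4, which lies 32.03 Mb from Stab1, 2 of 41. Over all tested genes the share called was 1.94%. Opposite-strand exons overlap Prox1 (133 bases, Prox1os), Nr2f2 (643 bases, B130024G19Rik), Maf (440 bases, Gm15655) and Reln (246 bases, Gm10475) in GENCODE M21. Reads in those bases cannot be assigned to either gene, since the libraries carry no strand information.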

How the data were processed

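Endothelial RNA was amplified with SMART-Seq v4 and made into Nextera XT libraries, per the labels' protocols. Tools named in the submitters' processing notes are limma, edgeR, Subread and STAR 2.5.2b, with no roles given, and the build is mm10. The authors deposited RPKM for 23337 genes and 6 libraries; the file header names the libraries only, and the unit was taken from the values. The authors also deposited log2 fold changes with p-values, raw and adjusted. Column names give a genotype with numbers other than those of the labelled replicates, so columns were tied to a genotype and to no one sample.

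Each library's values were whole multiples of 1 read's worth (tolerance 0.001) for all 17683 genes above 0, from which reads and depth (reads counted in the table) were recovered. This covers counting error only, and the precision is set mainly by the spread between libraries for genes at several RPKM. The 11035 genes that reached 1 RPKM in 3 or more libraries were fitted in R 4.3.3 with limma 3.58.1 (variance trend), as log2(RPKM + 0.5) against genotype. A fold change on this scale understates the change of low genes. P-values were adjusted by Benjamini-Hochberg over all tested genes, with a threshold of 0.05. The planned count tests were not used as the main test because RPKM are not counts; voom (limma) was run on the recovered reads, with library sizes scaled as in the deposited values. Members were also tested by exact permutation.

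The members and lists were chosen with earlier results of these data known. List entries were matched by symbol (231) or older symbol (8), and 2 were not matched. One listed gene is not reported here. The genes named were the members, up to 4 called genes per list (otherwise the 2 of smallest p), the check genes Stab1, Pecam1 and Ptprc, and the 3 genes most alike to each tested member. Other names (further relatives of the factors, further markers of other cell types, Sox18, Flt4, Stab2, Gpr182, Wnt2, Ccl21a, Vldlr, Lrp8, Ackr1 and Selp) were chosen after their values were seen. Annotation came from GENCODE M21 and RefSeq GRCm38.p6. Alternatives were other pseudocounts, minimum levels and scalings, voom, robust variances, library quality weights, GC and length trends removed, each library left out, and a replicate block. Figures used Python 3.11.15 with matplotlib 3.10.9.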

Additional observations from a re-analysis of the deposited data

How the results depend on the processing

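Over all genes the number called was 214, and in separate fits it was 77 with no minimum level, 3653 with library quality weights, 355 with the replicate block and 56 to 418 with 1 library left out (56 without KO 3, 83 without KO 2, 93 without WT 4 and 418 without KO 4). The identity genes, 0 called, gave 2 calls with library quality weights, Mmrn1 (log2 fold change -0.64, adjusted p = 0.0148) and Maf, and 0 under every other alternative. Library quality weights raised the calls over all genes as well, and the cause was not tested. The 9 pathway lists, 7 called, gave 1 call with no minimum level, 41 with library quality weights, 11 with the replicate block and 2 to 9 with 1 library left out. The marker lists, 4 called, gave 2 to 5 with 1 library left out.

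Prox1 was the one tested member whose sign turned, to 0.10 with GC and length trends removed and to 0.13 without WT 3, and it ranged from -0.36 to 0.13 with 1 library left out. Mmrn1 was negative under every alternative that tested it, with -0.91 to -0.52 and adjusted p of 0.137 to 0.458 with 1 library left out, and it was not tested at a minimum of 5 RPKM. Maf ranged from -0.46 to -0.23 and Nr2f2 from -0.28 to -0.05 when 1 library was left out. The split of called genes, 74 higher and 140 lower, was 94 and 113 with GC and length trends removed. The replicate block used the 2 column numbers that the genotypes share, 3 and 4. These are not the labels' replicate numbers and pair no samples by design. KO 2 and WT 1 share no number, so the fold changes with the replicate block rest on KO 3, KO 4, WT 3 and WT 4 alone. Deviations of the libraries that share a number correlated at 0.193 in both pairs. Depth limits Gata4, Pdpn and Reln, which rest on at most 73 reads in any library.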

Other observations

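A pair of venule genes outside the identity set varied by library in both genotypes. Ackr1, the atypical chemokine receptor of venules, had 11.9, 32.4 and 3.98 RPKM in KO 2, KO 3 and KO 4 and 26.8, 1.16 and 1.66 RPKM in WT 1, WT 3 and WT 4. Selp, the P-selectin gene, had 5.48, 16.4 and 0.299 RPKM in KO 2, KO 3 and KO 4 and 16.5, 1.37 and 0.127 RPKM in WT 1, WT 3 and WT 4. KO 3 and WT 1 were the highest libraries for both genes, and neither gene was called.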
